A study of Mus musculus with 11 samples.

Results

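Chaperones and endoplasmic reticulum (ER) stress genes were measured in bulk RNA of the mouse left ventricle, in naive hearts and in hearts with myocardial infarction (MI). The set was a list of 43 genes, matched by symbol to Ensembl identifiers, of 25006 genes counted in the deposited files, and all 43 passed the filter on low counts. They comprised 9 ER lumen chaperones and co-chaperones, 2 lectin chaperones, 4 protein disulfide isomerases, 6 stress sensors and transcription factors, 4 genes of ER-associated degradation, 4 integrated stress response targets, 8 cytosolic chaperones, 3 small heat shock proteins and 3 mitochondrial chaperones. The first 3 of these classes, 15 genes, are called secretory-pathway chaperones and isomerases here.

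Each of the 11 libraries came from 1 mouse. Mice of genotype Vegfc fl/fl, called control, gave 2 naive and 3 MI libraries, and mice of genotype Vegfc fl/fl;LysMCre, called LysMCre, gave 3 naive and 3 MI libraries. MI was a permanent ligation of the left anterior descending coronary artery, with tissue taken on day 9 from the infarcted ventricle, and naive hearts gave a matching piece of the left ventricle without ligation. Both genotypes thus carried the floxed Vegfc alleles by the genotype label, while the sample protocol and the study's methods call the controls LysMCre mice, and the labels do not settle this. LysMCre places Cre recombinase in the lysozyme gene Lyz2, so that floxed Vegfc is cut in myeloid cells. The ages and the sexes of the mice were not labelled.

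Proteins made for secretion or for membranes fold in the ER, where BiP (Hspa5), the lectins and the disulfide isomerases assist them. When unfolded proteins build up, the sensors IRE1 (Ern1), PERK (Eif2ak3) and ATF6 switch on XBP1, ATF4 and ATF6, which raise ER chaperones, degradation of misfolded proteins and amino acid supply, and with lasting stress the death-linked factor CHOP (Ddit3). The cytosol, the mitochondria and the contractile apparatus of heart muscle have chaperone systems of their own, and cardiomyocytes are rich in small heat shock proteins and mitochondria.

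Total counts ran from 10824989 to 14585642 in the naive and from 14580756 to 26782728 in the MI libraries. Levels are given as counts relative to library size (CPM), with sizes scaled by the TMM method, in the order of the replicate numbers, which only name the libraries. A count of 3 corresponded to at most 0.277 CPM before this scaling, counting error only. Nothing in the labels says more about the independence of the mice, so p-values measure the spread between these samples. Libraries of the same group differed by more than sampling noise in every pair, with a chi-square per gene of 7.94 to 171, and none was counted as a duplicate. The level of Xist ranged from 188 to 403 CPM after MI and from 0.624 to 11.8 CPM in naive hearts. Summed, 4 Y-linked genes were at most 1.84 CPM in the MI and at least 152 CPM in the naive libraries. By these genes all MI libraries read as female and all naive ones as male. MI and sex therefore cannot be told apart in any MI comparison below. Lyz2 was at 2121 to 5380 CPM in the 5 control libraries. In the library labelled naive LysMCre replicate 3 it was at 4565 CPM, within that range, against 72.5 and 245 CPM in its group. The genotype label of that library is therefore uncertain, and it was kept as given. MI LysMCre replicate 1 was at 1392 CPM, against 12.4 and 203 CPM in its group, and without it 24 members were called after MI in LysMCre and 20 in control mice (20 and 19 with it), and 0 between the genotypes. Without naive LysMCre replicate 3, Pdia4 and Ern1 were called after MI in control mice, and Creld2 and Asns in LysMCre mice. Syvn1 in control mice and Ddit3 in LysMCre mice then lost their calls. Further values without this library are given below for some of the genes. Whole-tissue Vegfc was at 21.9 to 45.5 CPM in control and 22.4 to 34.5 CPM in LysMCre libraries, and its levels overlapped between the genotypes.

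The labelled tissue was checked against marker genes. Cardiomyocyte markers, 12 genes such as Myh6 and Tnnt2, summed to 111800 to 147319 CPM in naive hearts, to 3677 to 23098 CPM in MI control and to 7944 to 35542 CPM in MI LysMCre hearts. After MI 12 of 12 were called lower in control and 11 of 12 in LysMCre mice, and none was at 0. Fibroblast markers, 8 genes such as Col1a1 and Dcn, summed to 5557 to 7593 CPM in naive, 30640 to 40838 CPM in MI control and 38368 to 48544 CPM in MI LysMCre hearts, with 5 and 6 of 8 called higher. Macrophage markers, 8 genes, summed to 1453 to 2207 CPM in naive, 2719 to 4840 CPM in MI control and 1993 to 4080 CPM in MI LysMCre hearts, with 4 and 5 of 8 called higher. In bulk tissue, fewer cells of a type and less RNA per cell cannot be told apart, and the part of cell makeup in the changes below was not tested.

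The promoters of several ER members carry the element through which ATF6 is known to act, and they are shown because genes with this element differed in their response to MI. RefSeq windows of 300 bases on GRCm38.p6, from 250 before to 50 after the annotated start, were found for 35 of the 43 genes and 27025 genes in all. Those of Atf6, Cryab, Hsp90aa1, Hsp90ab1, Hspa8, Hspa9, Hyou1 and Manf were not used here. Both strands were searched for the ER stress response element, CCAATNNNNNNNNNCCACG, which stood in 8 of the 35 members (22.9%) and in 37 of all 27025 windows (0.137%). In the lines below each site is read 5′ to 3′ on the strand of its gene, and capitals mark the fixed letters of the motif. Where the element lies on the other strand it appears as its reverse complement.
Hspa5 (chr2:34772020-34772048, + strand): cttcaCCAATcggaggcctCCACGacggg
Hsp90b1, distal (chr10:86705633-86705661, - strand): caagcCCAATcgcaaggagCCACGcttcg
Hsp90b1, proximal (chr10:86705528-86705556, - strand): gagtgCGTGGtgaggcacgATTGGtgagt
Creld2 (chr15:88819515-88819543, + strand): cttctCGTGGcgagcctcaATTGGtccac
Canx (chr11:50325795-50325823, - strand): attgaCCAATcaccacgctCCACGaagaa
Calr (chr8:84847070-84847098, - strand): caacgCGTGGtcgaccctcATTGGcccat
Dnajc3 (chr14:118937822-118937850, + strand): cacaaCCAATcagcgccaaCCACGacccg
Pdia6 (chr12:17266486-17266514, + strand): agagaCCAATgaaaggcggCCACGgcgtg
Syvn1 (chr19:6046527-6046555, + strand): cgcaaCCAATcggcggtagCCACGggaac

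The Hspa5 site began 65 bases and the distal Hsp90b1 site 212 bases before the start, and all 9 sites lay before it. The variant element, ATTGG and CCACG with 1 free base between them, stood in 12 windows (0.0444%), among them those of Dnajb11, after its start, and Herpud1. The Herpud1 window also held TTGCATCA, the core of the amino acid response element used by ATF4, as did that of Chac1 and 279 windows in all (1.03%). A heat shock element, GAANNTTCNNGAA, was found in 179 windows (0.662%) and in 3 of the 35 members (8.57%), among them Hsph1, after its start. The neighbours Hspd1 and Hspe1, which are transcribed away from each other, shared such an element between their RefSeq starts. A match on the other strand overlaps it. The same bases are read from each gene's strand in these lines.
Herpud1, variant element (chr8:94386372-94386392, + strand): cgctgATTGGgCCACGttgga
Herpud1, amino acid element (chr8:94386309-94386332, + strand): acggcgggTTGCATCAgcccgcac
Hspd1 (chr1:55088051-55088079, - strand): gccttccgGAAggTTCtaGAAcggaccgt
Hspe1 (chr1:55088051-55088079, + strand): acggtccgTTCtaGAAccTTCcggaaggc
These matches describe letters in a window, not binding.

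The question of the MI comparison was how the injured ventricle differs from the naive ventricle in its folding machinery. After MI, 4 of the 15 secretory-pathway genes were called higher and none lower in both genotypes, where 21.2% of all genes were higher and 21.2% lower. Of the small heat shock proteins 2 of 3 were called lower in both, as were the 3 mitochondrial chaperones. The test was edgeR's quasi-likelihood test, from a single model of the 11 libraries, and a gene is called where its p, adjusted by Benjamini-Hochberg over 14779 genes, is under 0.05 (edgeR adjusted p). Log2 fold changes are given ± their standard error. In control mice 9 members were called higher and 10 lower, where 26.3% and 24.1% of all genes were. In LysMCre mice 13 members were called higher and 7 lower, where 30.0% and 27.7% of all genes were. In both genotypes, 8 members rose (Dnajc3, Pdia3, Pdia6, P4hb, Eif2ak3, Syvn1, Edem1 and Sesn2) and 6 fell (Trib3, Hspb1, Cryab, Hspd1, Hspe1 and Hspa9), where 21.2% of all genes rose and 21.2% fell in both. The counts over the whole list were thus near or under the background, and the classes within it differed. The 4 of 15 secretory-pathway genes called higher in both genotypes were also near it. Of these 15 genes 33.3% were called higher in control and 46.7% in LysMCre mice. Of the 9 ER lumen genes among them 22.2% were in each genotype, under the shares of all genes. The 2 MI comparisons share no library. Groups without overlap were common among the 14779 genes. In control mice all MI libraries lay above all naive ones in 5779 genes and below them in 4871. In LysMCre mice they did so in 4966 and 4536. The statements below that MI and naive libraries do not overlap should be read against these counts, which are within each genotype. Where all 6 MI libraries are set against all 5 naive ones the separation is stricter, and it was not counted over all genes.

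By class, the median log2 fold change after MI was 0.46 in control and 0.55 in LysMCre mice over the 15 secretory-pathway genes, of which 5 and 7 rose and none fell. The 4 disulfide isomerases had medians of 0.92 and 1.17. The 3 small heat shock proteins had medians of -2.11 and -1.42, and the 3 mitochondrial chaperones of -1.72 and -1.63. In between lay the ER lumen genes at 0.24 and 0.31, the lectins at 0.13 and 0.62, the sensors and factors at -0.14 and 0.04, ER-associated degradation at 0.39 and 0.93 and integrated stress response targets at -0.42 and 0.09. The median over all genes tested was 0.13 and 0.10. Of the genes whose ER stress response element is printed above, Dnajc3, Pdia6 and Syvn1 rose in both genotypes and Calr in LysMCre mice, while Hspa5, Hsp90b1, Creld2 and Canx were not called. With library totals alone as the scaling, the all-gene median moved to 0.57 in control and 0.59 in LysMCre mice and the share of higher genes among those called from 52.1% to 76.2% and from 52.0% to 75.5%. The secretory-pathway medians then became 0.90 and 1.04, and those of the mitochondrial chaperones -1.28 and -1.12. The cytosolic chaperones, with medians of -0.50 and -0.19, were at -0.06 and 0.32 under that scaling, so their sign in LysMCre mice depended on it.

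**Figure D1:**
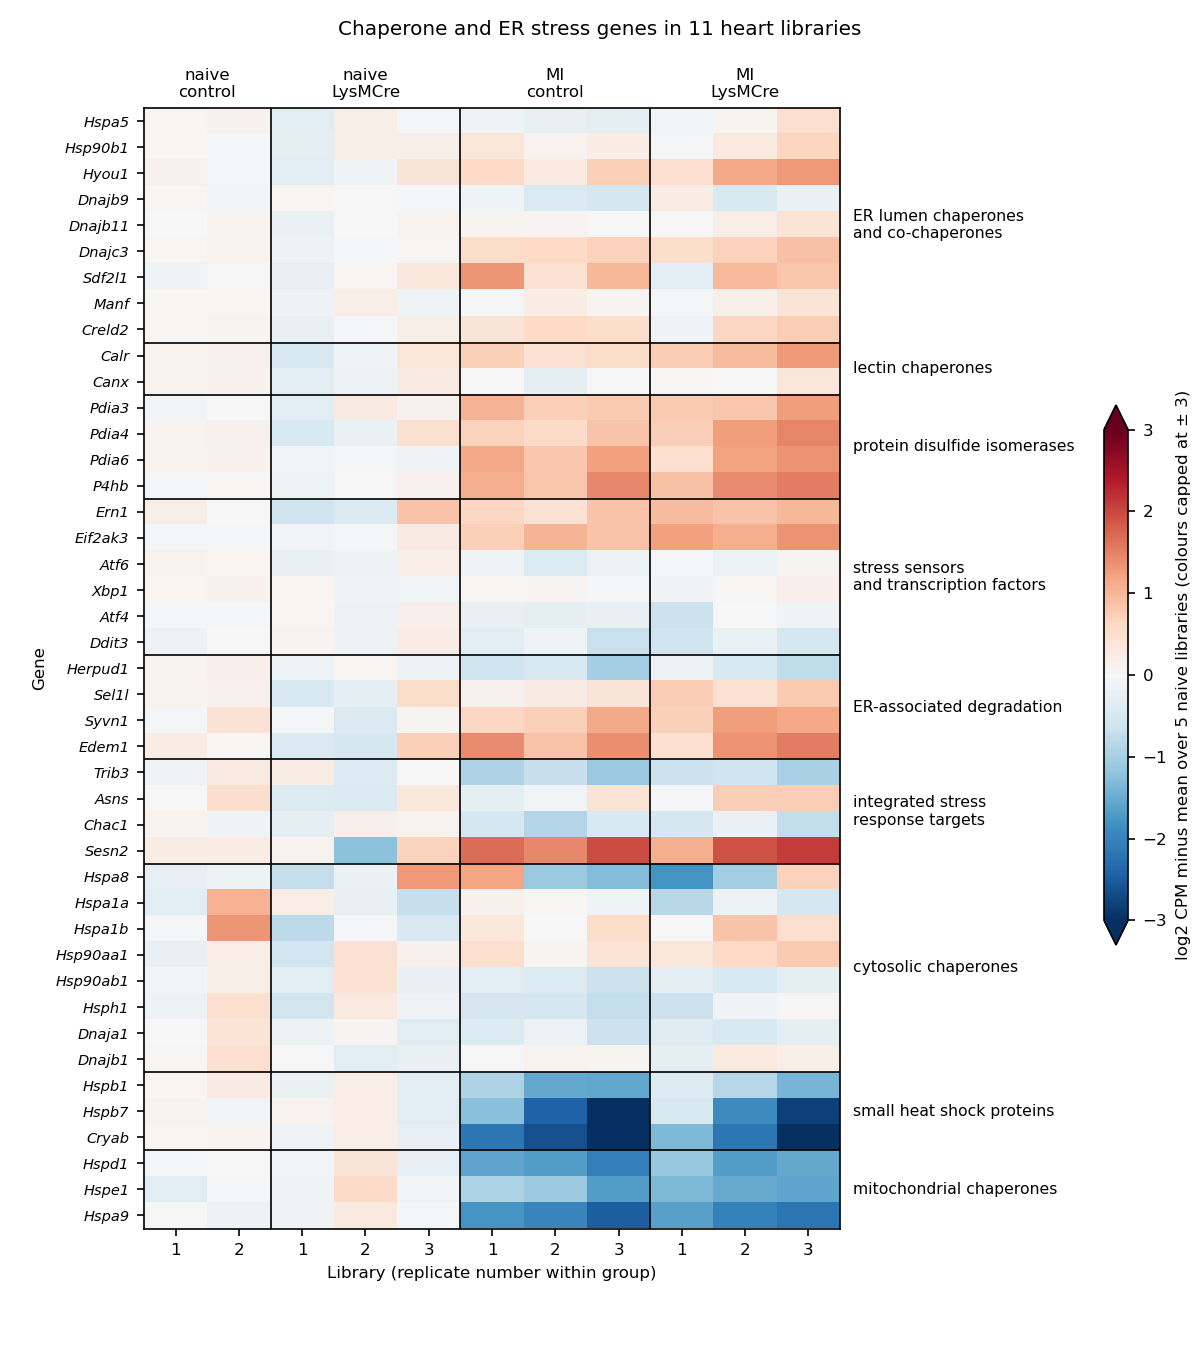
Each row is 1 of the 43 genes, grouped by class, and each column 1 of the 11 libraries. Colour gives log2 CPM minus the gene's mean over the 5 naive libraries, red above and blue below, capped at 3 either way. The disulfide isomerases are red and the small heat shock and mitochondrial chaperones blue in all 6 MI libraries, while Xbp1 is near white throughout.

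The control comparison rests on 2 naive libraries. Without naive control replicate 1, 8 of its 19 calls were lost (Dnajc3, Sdf2l1, Pdia3, Pdia6, Syvn1, Edem1, Sesn2 and Hspb7, edgeR adjusted p 0.062 to 0.304), and without replicate 2 the calls of Dnajc3, Sdf2l1, Pdia3, Pdia6, Herpud1, Syvn1, Edem1, Trib3, Sesn2, Hsph1, Dnaja1, Hspb7 and Hspe1 (0.0522 to 0.358). The lone naive library is assumed there to vary like the other groups. Without MI control replicate 3, 12 members were called. In LysMCre mice 20 were called with all libraries, 21 without naive LysMCre replicate 3, 14 without naive LysMCre replicate 1 and 14 without MI LysMCre replicate 3. Across every scaling, tool and left-out library, the calls that held were 6 of 19 in control mice (P4hb, Eif2ak3, Hspb1, Cryab, Hspd1 and Hspa9) and 14 of 20 in LysMCre mice (Hyou1, Dnajc3, Calr, Pdia3, Pdia4, Pdia6, P4hb, Eif2ak3, Syvn1, Sesn2, Cryab, Hspd1, Hspe1 and Hspa9).

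Levels were compared between genes per kilobase of annotated exon. In naive hearts the highest mean levels were those of Cryab at 1771 CPM per kb, Hspb7 at 563, Hsp90ab1 at 403, Hspa9 at 247 and Hspa5 at 233. After MI they were those of Cryab at 353 CPM per kb, Pdia3 at 338, P4hb at 332, Hsp90ab1 at 302 and Calr at 246. Pdia3, P4hb and Calr had entered these 5, and Hspb7, Hspa9 and Hspa5 had left them, Hspa5 with nearly the same level as before at 232 CPM per kb. The lowest levels in naive hearts were those of Hspa1a, a stress-inducible cytosolic Hsp70 gene, at 1.05 CPM per kb, Sesn2 at 1.07 and the near-identical Hspa1b at 1.27. Of the 50-base stretches of Hspa1a and Hspa1b, 60.3% and 62.3% also occur in other annotated genes, so the levels of these genes are uncertain.

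Among the ER lumen chaperones, BiP and GRP94 were not called. Hspa5, which encodes BiP, the ER Hsp70 that also holds the stress sensors inactive, was at 1001 and 1069 CPM in naive control, 783, 1111 and 961 in naive LysMCre, 907, 837 and 794 in MI control and 928, 1032 and 1396 in MI LysMCre hearts. The 3 MI control libraries lay just below the 2 naive ones, MI LysMCre overlapped with naive LysMCre, and MI LysMCre replicate 3 was the highest of all 11. Its log2 fold change after MI was -0.29 ± 0.24 in control and 0.23 ± 0.21 in LysMCre mice (edgeR adjusted p = 0.327 and 0.366), and the value in LysMCre mice passed the test with library totals alone, at 0.74. Hsp90b1, the ER Hsp90 (GRP94), was at 684 and 648 CPM in naive control, 548, 761 and 741 in naive LysMCre, 858, 728 and 780 in MI control and 657, 828 and 1051 in MI LysMCre hearts. Its log2 fold changes of 0.24 and 0.31 did not pass either, and passed in both genotypes with library totals alone, at 0.69 and 0.81.

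Co-chaperones of BiP rose in part. Dnajc3, which encodes p58IPK, was at 88.6 to 105 CPM in the 5 naive and 141 to 182 CPM in the 6 MI libraries, and every MI library was above every naive one. It rose by a log2 fold change of 0.53 ± 0.14 in control and 0.76 ± 0.13 in LysMCre mice (edgeR adjusted p = 0.011 and 0.000627). Hyou1, the nucleotide exchange factor of BiP, was at 26.4 to 43.1 CPM in the 5 naive and 40.4 to 80.8 CPM in the 6 MI libraries, with 0.51 ± 0.26 in control mice (edgeR adjusted p = 0.13) and a rise of 1.01 ± 0.23 in LysMCre mice (edgeR adjusted p = 0.0043). Sdf2l1, a partner of the BiP cycle, rose in control mice by 1.03 ± 0.37 (edgeR adjusted p = 0.0374), a call lost in 6 of 11 fits that each left out 1 library, while in LysMCre mice MI replicate 1, at 19.3 CPM, lay below all naive libraries and the value was 0.55 ± 0.32 (edgeR adjusted p = 0.162). Dnajb9 and Dnajb11, the J-domain proteins ERdj4 and ERdj3, the secreted ER protein gene Manf and Creld2 were not called, with log2 fold changes between -0.33 (Dnajb9) and 0.50 (Creld2). Creld2 was called in LysMCre mice without naive LysMCre replicate 3 (0.61, edgeR adjusted p = 0.0415).

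Of the lectins, which hold glycoproteins for folding, Calr but not Canx was called. Calr, calreticulin, was at 432 and 441 CPM in naive control, 290, 369 and 520 in naive LysMCre, 660, 553 and 586 in MI control and 685, 777 and 983 in MI LysMCre hearts. All MI libraries lay above all naive ones, MI LysMCre replicate 3 highest. The log2 fold change was 0.46 ± 0.26 in control (edgeR adjusted p = 0.166) and 1.05 ± 0.23 in LysMCre mice (edgeR adjusted p = 0.00328), and the value in control mice passed with library totals alone, at 0.90. Canx, calnexin, was at 231 to 338 CPM in the 5 naive and 238 to 360 CPM in the 6 MI libraries, and its values of -0.20 and 0.19 were not called, the control value turning to 0.24 with library totals alone.

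All 4 disulfide isomerases were higher in every MI library than in any naive library, a separation that was common among all genes within each genotype. P4hb, protein disulfide isomerase and also the beta subunit of the collagen prolyl 4-hydroxylase, was at 399 and 414 CPM in naive control, 370, 408 and 441 in naive LysMCre, 865, 728 and 1098 in MI control and 750, 1083 and 1170 in MI LysMCre hearts. It rose by 1.14 ± 0.25 and 1.30 ± 0.22 on the log2 scale, a fold of 2.21 in control and 2.46 in LysMCre mice (edgeR adjusted p = 0.00445 and 0.000768). Pdia6 was at 180 to 210 CPM in the 5 naive and 275 to 493 CPM in the 6 MI libraries and rose by 0.96 and 1.15. Pdia3, the isomerase that works with the lectins, was at 452 to 685 CPM in the 5 naive and 937 to 1348 CPM in the 6 MI libraries and rose by 0.88 and 0.91. Pdia4 was at 51.8 to 99.6 CPM in the 5 naive and 106 to 198 CPM in the 6 MI libraries, rose by 1.19 ± 0.25 in LysMCre mice (edgeR adjusted p = 0.00253) and had 0.61 ± 0.28 in control mice (edgeR adjusted p = 0.0929). Its control value passed without naive LysMCre replicate 3 (0.61, edgeR adjusted p = 0.0363). Fibroblast markers, summed above, were higher in the same 6 libraries, which are all the MI libraries.

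**Figure D2:**
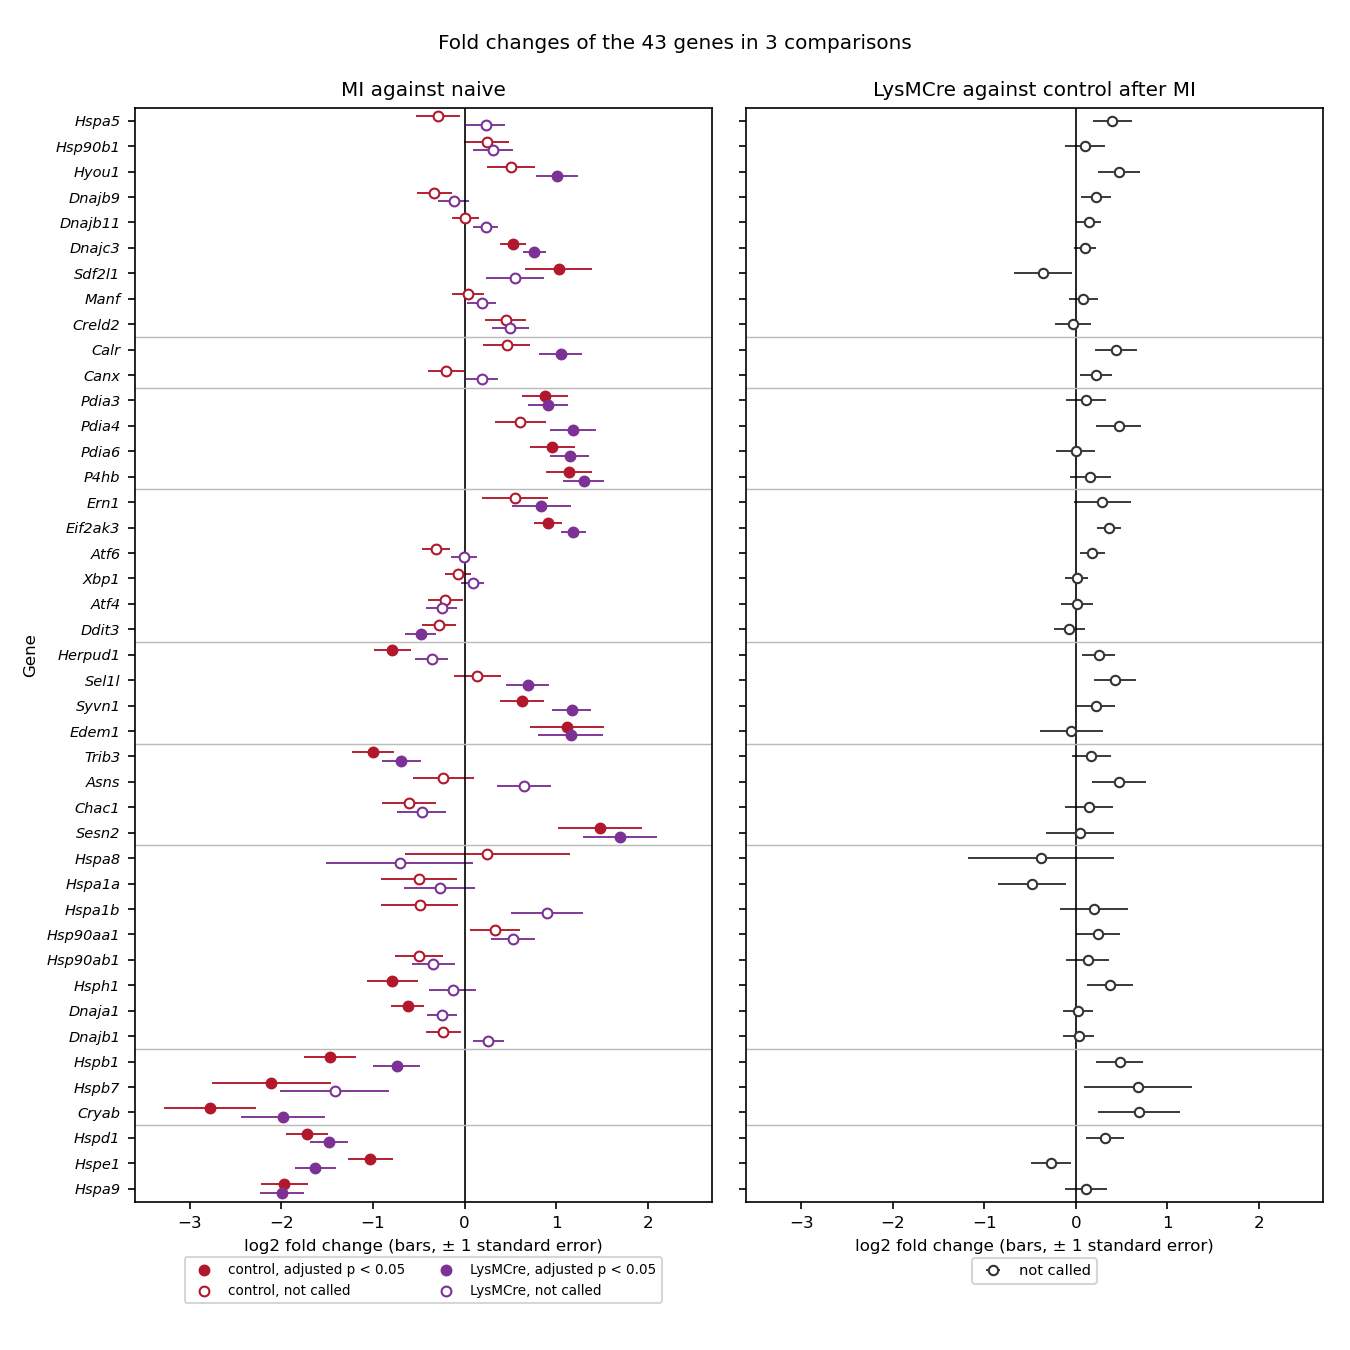
Left, log2 fold change of each gene for MI against naive in control (red) and LysMCre mice (purple). Right, the same for LysMCre against control after MI. Bars are ± 1 standard error and filled points have an adjusted p under 0.05; none is filled on the right, and on the left Cryab lies lowest at -2.78 and Sesn2 highest at 1.70.

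The sensors and their factors did not move together. Eif2ak3, which encodes PERK, the kinase of translation factor eIF2 alpha, was at 16.9 and 16.8 CPM in naive control, 16.3, 16.6 and 20.4 in naive LysMCre, 28.3, 35 and 31.6 in MI control and 41, 37.1 and 43.8 in MI LysMCre hearts. All 6 MI libraries exceeded the 5 naive ones, and the rise was 0.91 ± 0.15 in control and 1.19 ± 0.13 in LysMCre mice (edgeR adjusted p = 0.00108 and 8.58e-05). Ern1, the sensor IRE1, rose in LysMCre mice only by the test (0.84 ± 0.32, edgeR adjusted p = 0.0449), a call lost in 9 of 11 fits that each left out 1 library and with DESeq2 size factors (0.79, edgeR adjusted p = 0.0558), and its value in control mice was 0.55 ± 0.36 (edgeR adjusted p = 0.229). For Ern1, naive LysMCre hearts were at 6.59, 7.38 and 18 CPM, with replicate 3 the high one, and MI LysMCre hearts at 19.4, 18.1 and 19.9 CPM. Without that library the rise was 1.45 (edgeR adjusted p = 0.000266), and the control value passed too (0.55, edgeR adjusted p = 0.023). Atf6 was at 78.5 to 105 CPM in the 5 naive and 68.6 to 96.4 CPM in the 6 MI libraries and was not called, with -0.31 and -0.01, the latter becoming 0.48 and called with library totals alone.

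Xbp1, the factor whose mRNA IRE1 splices, was at 240 and 251 CPM in naive control, 236, 210 and 217 in naive LysMCre, 236, 242 and 225 in MI control and 215, 237 and 256 in MI LysMCre hearts. The groups lay within the same narrow range, and the log2 fold changes were -0.07 ± 0.14 and 0.09 ± 0.12 (edgeR adjusted p = 0.711 and 0.548), the latter 0.59 and called with library totals alone. Gene counts do not separate spliced from unspliced Xbp1. Atf4, a factor controlled mainly at translation, was at 252 and 253 CPM in naive control, 267, 233 and 289 in naive LysMCre, 220, 215 and 221 in MI control and 166, 256 and 241 in MI LysMCre hearts, with -0.21 ± 0.19 and -0.25 ± 0.17 (edgeR adjusted p = 0.386 and 0.231), both 0.24 with library totals alone.

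Ddit3, which encodes CHOP, was at 58.4 and 64 CPM in naive control, 68.3, 58.2 and 75.6 in naive LysMCre, 51.3, 59.3 and 40.9 in MI control and 43, 56.7 and 44.7 in MI LysMCre hearts. MI LysMCre libraries were all below naive LysMCre ones, while MI control replicate 2 lay within the range of the naive controls. In LysMCre mice the log2 fold change was -0.48 ± 0.17 (edgeR adjusted p = 0.0301), a fall that was 0.00 with library totals alone and lost its call in 4 of 11 fits that each left out 1 library, and in control mice it was -0.28 ± 0.19 (edgeR adjusted p = 0.235). Ddit3 overlaps Mars on the opposite strand, and the strand setting of the counting is not given in the sources used here.

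ER-associated degradation returns misfolded proteins to the cytosol for the proteasome. Of its 4 genes, 2 were called higher and 1 lower in control mice (50% and 25%, against 26.3% and 24.1% of all genes). In LysMCre mice 3 were called higher (75%, against 30.0% of all genes). Edem1, the lectin that picks mannose-trimmed glycoproteins, was at 59.8 and 52.5 CPM in naive control, 38.2, 35.3 and 83.8 in naive LysMCre and 137, 93.1 and 135 in MI control hearts, with a mean of 117 ± 39.9 CPM (SD, n = 3) in MI LysMCre hearts. MI LysMCre replicate 1, at 72.7 CPM, lay below naive LysMCre replicate 3. Edem1 rose by 1.12 ± 0.41 and 1.16 ± 0.35 (edgeR adjusted p = 0.0407 and 0.0173), calls lost in 6 and 4 of 11 fits that each left out 1 library. Syvn1, the ubiquitin ligase HRD1, was at 9.68 to 17.5 CPM in the 5 naive and 20.2 to 31.3 CPM in the 6 MI libraries and rose by 0.63 ± 0.24 and 1.17 ± 0.21 (edgeR adjusted p = 0.0493 and 0.00117), and in control mice this call was lost in 9 of 11 fits that each left out 1 library. Sel1l, the adaptor of HRD1, rose by 0.69 ± 0.23 in LysMCre mice (edgeR adjusted p = 0.0264) and had 0.14 ± 0.26 in control mice (edgeR adjusted p = 0.668). It was at 47.1, 52.8 and 94.7 CPM in naive and 111, 89.9 and 113 CPM in MI LysMCre hearts, which overlapped, and its call was lost in 4 of 11 fits that each left out 1 library. Without naive LysMCre replicate 3, the highest naive library for both genes, the log2 fold change in LysMCre mice was 1.07 for Sel1l and 1.67 for Edem1. Without naive LysMCre replicate 3 the median of the 4 genes in LysMCre mice was 1.17, against 0.93 with it. Herpud1, a scaffold of the same complex, went the other way. It was at 184 and 194 CPM in naive control, 160, 182 and 158 in naive LysMCre, 115, 126 and 86.7 in MI control and 158, 127 and 104 in MI LysMCre hearts, and all MI control libraries lay below the naive ones. It fell in control mice, to 0.579 times the naive level (-0.79 ± 0.20, edgeR adjusted p = 0.00854), where library totals alone gave -0.35 and no call, with -0.36 ± 0.18 in LysMCre mice (edgeR adjusted p = 0.114). Its promoter carries both elements printed above.

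Targets of the integrated stress response split. Sesn2, a stress-induced inhibitor of mTORC1 signalling, was at 1.45 to 5.49 CPM in the 5 naive and 7.29 to 14.7 CPM in the 6 MI libraries and rose by 1.48 ± 0.46 and 1.70 ± 0.40, the highest values among the 43 genes in each genotype (edgeR adjusted p = 0.021 and 0.00482). Trib3, a pseudokinase induced by ATF4 and CHOP, was at 9.44 to 15.2 CPM in the 5 naive and 5.8 to 8.24 CPM in the 6 MI libraries and was called at 0.5 and 0.619 times the naive level in control and LysMCre mice (edgeR adjusted p = 0.00546 and 0.0175), a fall in both whose log2 fold changes with library totals alone were -0.56 and -0.20, not called. Asns, asparagine synthetase, had -0.23 ± 0.33 and 0.65 ± 0.30 (edgeR adjusted p = 0.58 and 0.0829), and Chac1, which degrades glutathione, -0.61 and -0.47 at levels of 2.69 to 3.63 CPM in the 5 naive and 1.78 to 2.82 CPM in the 6 MI libraries. Neither was called.

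**Figure D3:**
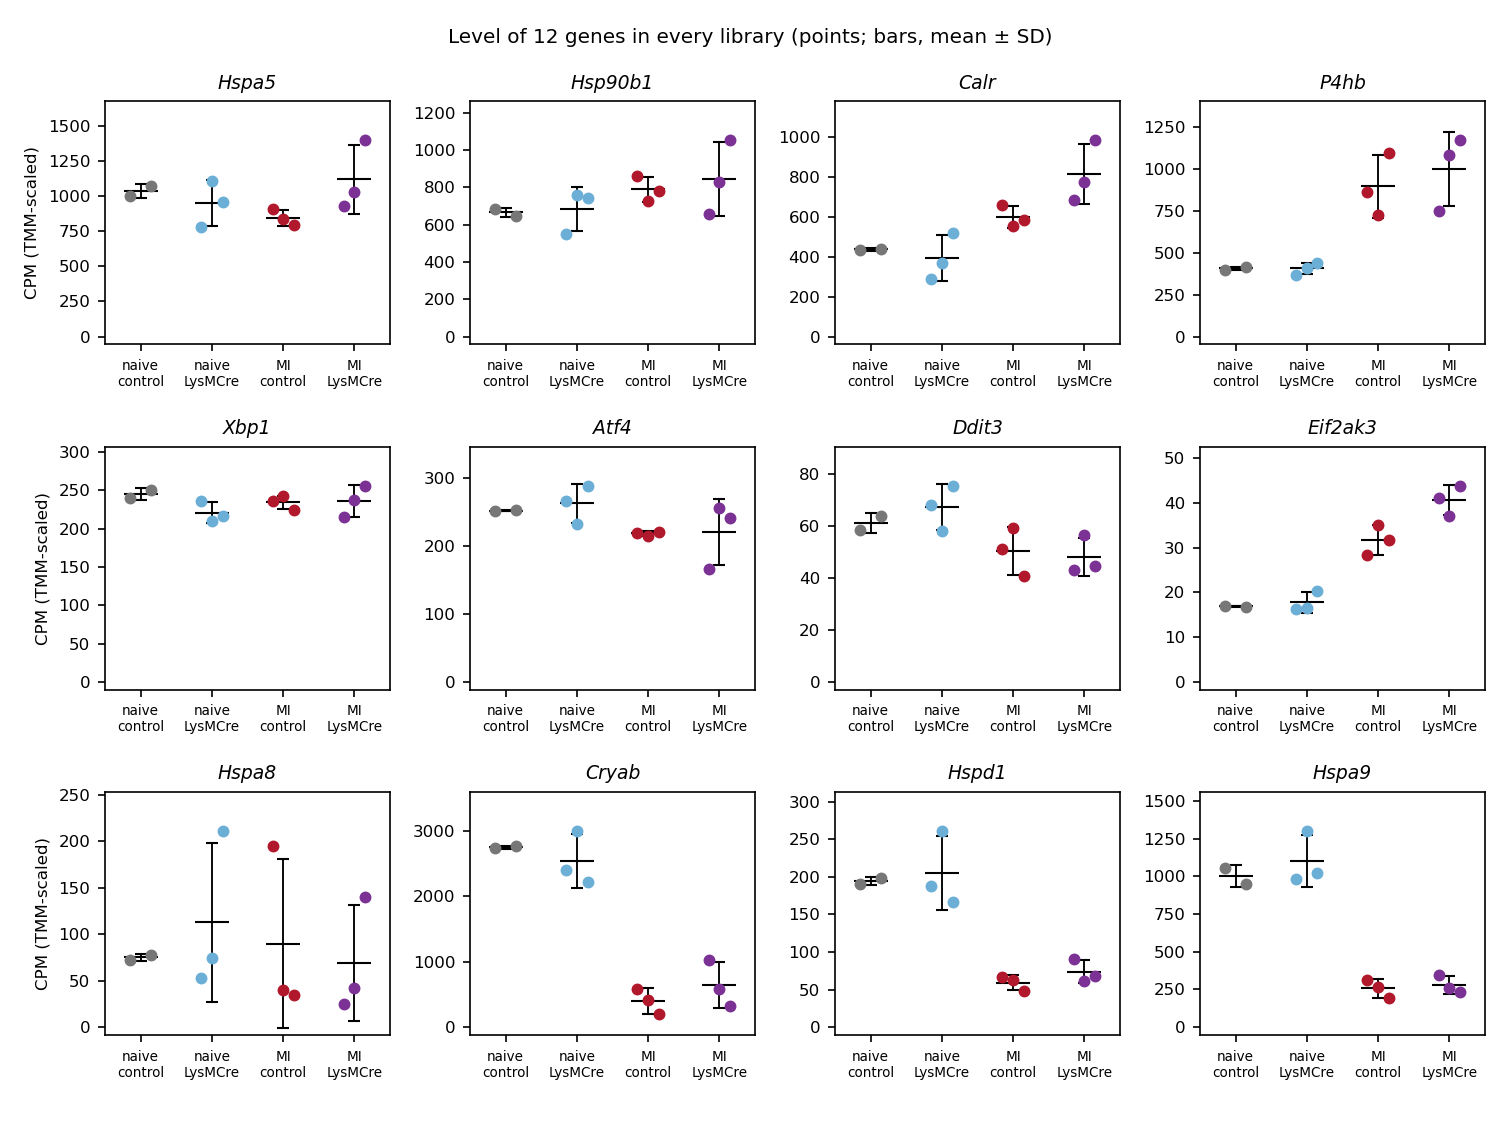
CPM of 12 genes in every library, 1 point per mouse, by group; bars are the mean ± SD. P4hb and Eif2ak3 are higher and Cryab, Hspd1 and Hspa9 lower in all MI libraries, Hspa5 and Xbp1 overlap, and Hspa8 has 1 high library in 3 of the 4 groups.

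The cytosolic chaperones gave 2 calls in control mice, both lower, a share of 25% that was near the 24.1% of all genes. They gave 0 of 8 in LysMCre mice, where the log2 fold change was above 0 in 3 and below 0 in 5. Hspa8, the constitutive HSC70, was at 72.6 and 78 CPM in naive control, 52.7, 74.8 and 211 in naive LysMCre, 195, 39.6 and 34.8 in MI control and 25, 41.9 and 140 in MI LysMCre hearts. Naive LysMCre replicate 3, MI control replicate 1 and MI LysMCre replicate 3 were high and the rest low, and the log2 fold changes were 0.25 ± 0.90 and -0.71 ± 0.80 (edgeR adjusted p = 0.829 and 0.469), the latter 0.12 without naive LysMCre replicate 3. Of the 50-base stretches of its transcript, 73.2% also occur in other annotated genes, so its counts are uncertain. Hspa1a was at 2.27 and 5.89 CPM in naive control, 3.26, 2.42 and 1.76 in naive LysMCre, 3.11, 2.91 and 2.6 in MI control and 1.59, 2.57 and 2.01 in MI LysMCre hearts. Hspa1b was at 2.99 and 7.76 CPM in naive control, 1.79, 3.03 and 2.26 in naive LysMCre, 3.85, 3.07 and 4.51 in MI control and 3.06, 5.63 and 4.4 in MI LysMCre hearts. Both stood at single-digit levels in every library, with naive control replicate 2 the highest, and 60.3% and 62.3% of their stretches are shared with other genes. Neither was called, with log2 fold changes of -0.50 ± 0.42 and -0.27 ± 0.39 for Hspa1a and -0.49 ± 0.42 and 0.90 ± 0.40 for Hspa1b.

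Hsph1 (Hsp110) and Dnaja1, an Hsp40, passed the test in control mice only. Hsph1 was at 78.2 and 125 CPM in naive and 61.8, 61.5 and 53.2 CPM in MI control hearts and had -0.79 ± 0.28 there (edgeR adjusted p = 0.0371), against -0.13 ± 0.25 in LysMCre mice. Without naive control replicate 2, in which it was highest, the value was -0.41 (edgeR adjusted p = 0.358). Dnaja1 was at 63.8 and 84.8 CPM in naive and 48.2, 56.4 and 41 CPM in MI control hearts and had -0.62 ± 0.18 there (edgeR adjusted p = 0.016), -0.39 without naive control replicate 2 and -0.18 with library totals alone, neither called. In LysMCre mice it had -0.25 ± 0.16, which turned to 0.26 with library totals alone. The median of the cytosolic class in control mice was 0.16 without naive control replicate 2, so its sign rested on that library. The Hsp90 genes Hsp90aa1 (18 to 37.3 CPM in the 5 naive and 28.7 to 46.2 CPM in the 6 MI libraries) and Hsp90ab1 (950 to 1627 CPM in the 5 naive and 763 to 989 CPM in the 6 MI libraries) and the Hsp40 gene Dnajb1 (45.9 to 82.1 CPM in the 5 naive and 48.2 to 71.4 CPM in the 6 MI libraries) were not called. Of Hsp90aa1, 58.5% of stretches are shared with other genes.

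The small heat shock proteins, which bind unfolding proteins without ATP, were called lower in 3 of 3 genes in control and 2 of 3 in LysMCre mice. Cryab, alpha B-crystallin, which protects desmin and titin in heart muscle, was at 2726 and 2762 CPM in naive control, 2404, 2992 and 2212 in naive LysMCre, 583, 416 and 199 in MI control and 1025, 580 and 325 in MI LysMCre hearts. No MI library reached the lowest naive one, and the log2 fold change was -2.78 ± 0.50 in control and -1.98 ± 0.46 in LysMCre mice (edgeR adjusted p = 0.0015 and 0.0042). Hspb7, the cardiovascular small heat shock protein, was at 1664 and 1470 CPM in naive control, 1654, 1766 and 1240 in naive LysMCre, 645, 288 and 159 in MI control and 1115, 410 and 223 in MI LysMCre hearts. It fell in control mice (-2.11 ± 0.65, edgeR adjusted p = 0.021), not called without either naive control library, MI control replicate 2 or MI control replicate 3 in turn, and was also below the naive range in all MI LysMCre libraries, with -1.42 ± 0.60 (edgeR adjusted p = 0.0635, and 0.006 without MI LysMCre replicate 1, where the value was -2.30). Hspb1 (Hsp25) fell in both genotypes, with log2 fold changes of -1.47 ± 0.28 and -0.74 ± 0.26 (edgeR adjusted p = 0.00214 and 0.0312), the call in LysMCre mice lost in 5 of 11 fits that each left out 1 library. The value of Hspb1 in LysMCre mice was -0.23 and not called with library totals alone, and 51.6% of its stretches are shared with 1 other gene. Cryab overlaps Hspb2 on the opposite strand.

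The mitochondrial chaperones fell in both genotypes. Hspd1, HSP60, was at 191 and 198 CPM in naive control, 188, 261 and 167 in naive LysMCre, 66.5, 62.6 and 47.6 in MI control and 90.7, 61.8 and 68.4 in MI LysMCre hearts. Hspa9, mortalin, the motor of protein import, was at 1056 and 952 CPM in naive control, 983, 1301 and 1025 in naive LysMCre, 311, 269 and 191 in MI control and 343, 260 and 231 in MI LysMCre hearts. For both genes all MI libraries lay below all naive ones, with log2 fold changes of -1.72 ± 0.23 and -1.48 ± 0.21 for Hspd1 (edgeR adjusted p = 0.000397 and 0.000276) and -1.97 ± 0.26 and -1.99 ± 0.24 for Hspa9 (edgeR adjusted p = 0.00037 and 0.000117). Hspe1, HSP10, the lid of HSP60, was at 63.8 to 117 CPM in the 5 naive and 24.9 to 40.9 CPM in the 6 MI libraries and fell, with log2 fold changes of -1.03 ± 0.24 and -1.63 ± 0.23 (edgeR adjusted p = 0.00599 and 0.000228). Hspd1 and Hspe1 overlap at their starts in the annotation, and 44.8% and 36.1% of their stretches are shared with other genes.

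Cardiomyocyte markers were lower in the same 6 libraries as these 6 genes. Those are all the MI libraries, so any gene lower in each of them shares this. From highest to lowest, the 6 MI libraries had the same order for Hspa9 as for the cardiomyocyte marker sum (MI LysMCre 1, MI control 1, MI control 2, MI LysMCre 2, MI LysMCre 3, MI control 3), while Hspb7 and Cryab shared 4 of the 6 places, Hspe1 3, and Hspd1 and Hspb1 2. Outside these classes Herpud1 also shared 4, Dnajb9 and Trib3 3, and Edem1 and Hspa1a 2. The match of Hspa9 was the closest among the 43 genes, picked after looking over all of them, and the order was not tested. Per 1000 CPM of the marker sum, Cryab was at 18.5 to 22.4 CPM in naive and 24.3 to 54.2 CPM in MI libraries, Hspb7 at 11.1 to 12.7 and 16.8 to 43.3, and Hspa9 at 7.55 to 9.17 and 9.65 to 51.9. Hspd1 was at 1.41 to 1.77 and 2.55 to 13.0, Hspe1 at 0.471 to 0.794 and 0.881 to 6.78, and Hspb1 at 0.367 to 0.529 and 1.09 to 5.01. Against this sum each of the 6 genes was therefore higher in every MI library than in any naive one, while against the library it was lower. The sum itself fell after MI, so any gene that falls less than the sum rises in such a ratio. The ratio therefore does not give the level per cardiomyocyte. These ratios carry no test, and other cells also express some of the 6 genes.

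**Figure D4:**
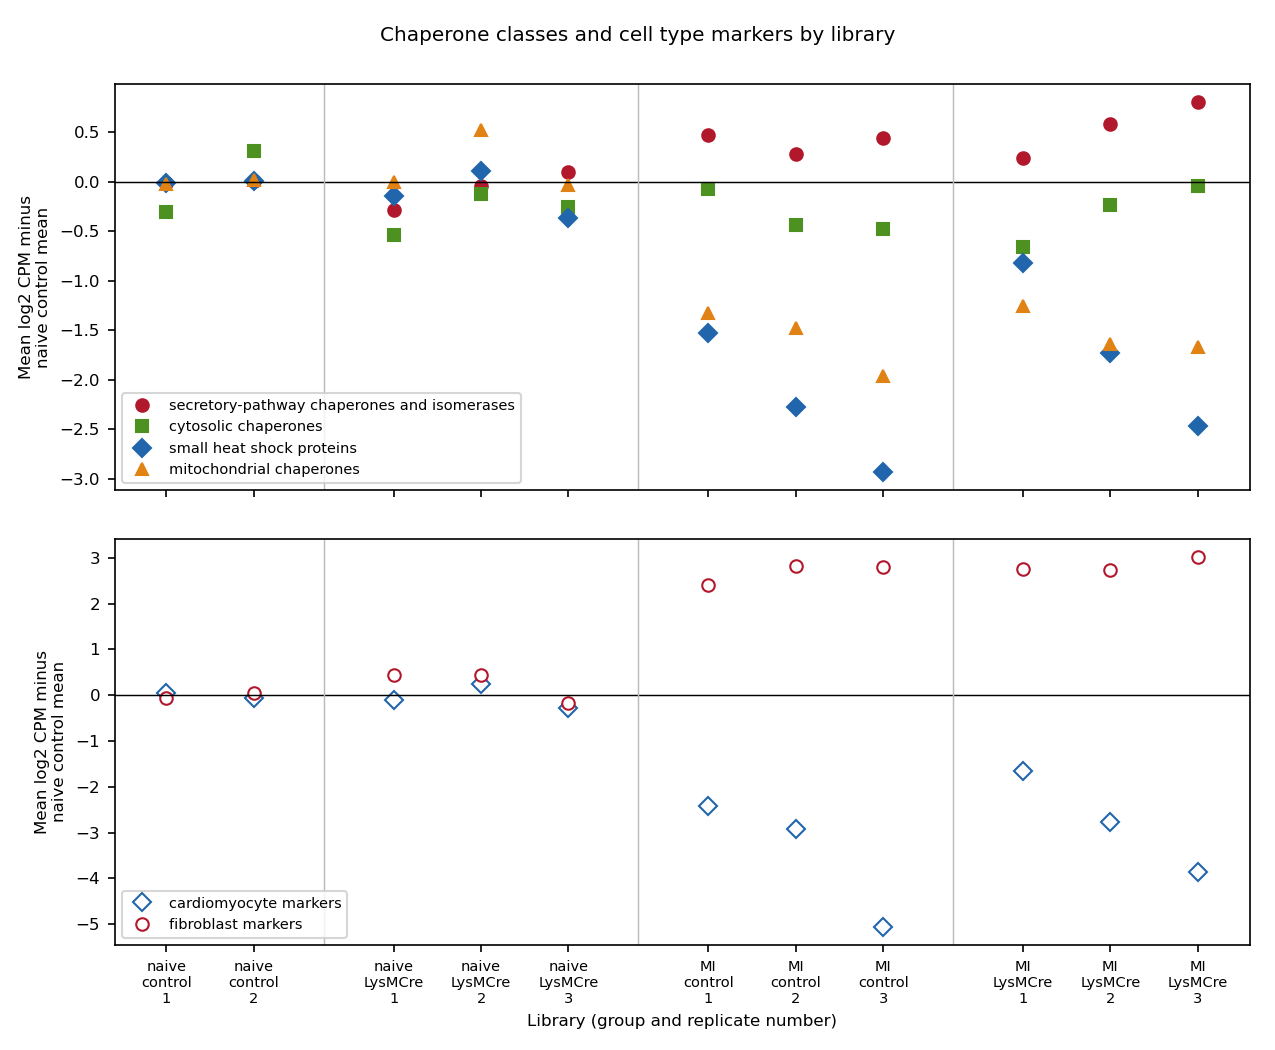
Top, mean log2 CPM of 4 chaperone classes in each library, relative to the naive control mean. Bottom, the same for 12 cardiomyocyte and 8 fibroblast markers. The secretory-pathway class lies at 0.24 to 0.80 in the MI libraries, and the small heat shock class at -0.82 to -2.93 with cardiomyocyte markers at -1.66 to -5.05.

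The secretory-pathway class varied among the MI libraries. MI LysMCre replicate 3 held the highest value of 13 of its 15 genes among the 6 MI libraries, and its class mean was 0.80 above the naive control mean, against 0.24 and 0.58 in its group and 0.28 to 0.47 in MI control hearts. That library also had the highest fibroblast marker mean, 3.01, and the second-lowest cardiomyocyte marker mean, -3.86. Without that library the median log2 fold change in LysMCre mice was 0.41 over the class, against 0.55 with it, and 0.12 over the 9 ER lumen genes, against 0.31.

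Other genes of the same systems were read from lists beside the 43, against the shares of all genes given above (26.3% higher and 24.1% lower in control, 30.0% and 27.7% in LysMCre mice). Of 41 other ER folding and translocation genes 20 rose and 2 fell in control and 23 rose and 5 fell in LysMCre mice, or 48.8% and 56.1% higher. The largest changes called in both genotypes were those of Fkbp10 (2.60 and 2.52) and Serpinh1 (1.60 and 2.09), both collagen chaperones, and of Pdia5 (1.80 and 2.63). Fkbp10 was at 23.5 to 28.8 CPM in naive and 104 to 196 CPM in MI libraries. Of 20 other ER-associated degradation genes 4 rose and 3 fell in control and 6 rose and 5 fell in LysMCre mice, shares of 20.0% and 30.0% higher that are at or under those of all genes. The largest changes were those of Os9 (0.68 and 1.42), Edem3 (0.71 and 0.97) and Edem2 (0.94 and 0.69). Of 18 other sensing and signalling genes 6 and 9 rose (33.3% and 50%) and 2 and 2 fell, led by the ER-anchored transcription factors Creb3l3 (1.95 and 2.11), Creb3l2 (1.95 and 2.09) and Creb3l1 (1.30 and 2.36). Creb3l3 was at only 0.242 to 1.27 CPM in naive and 2.17 to 4.37 CPM in MI libraries. Its lowest naive level was thus near that of a count of 3.

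Of 34 other integrated stress response targets tested 6 and 8 rose (17.6% and 23.5%) and 4 and 2 fell (11.8% and 5.88%), each under the share of all genes. The largest changes were those of Pycr1 (3.07 and 3.10), an enzyme of proline synthesis, the amino acid transporter Slc7a5 (1.63 and 2.80) and the lipoprotein receptor Vldlr (-2.36 and -1.84). The median of that list was -0.07 in control and 0.18 in LysMCre mice. Of 35 other cytosolic chaperones and co-chaperones 0 and 1 rose and 21 and 19 fell (60.0% and 54.3%), led by the myosin chaperone Unc45b (-2.83 and -2.05), Fkbp4 (-2.08 and -1.62) and Dnaja4 (-1.90 and -1.62). Of 14 TRiC and prefoldin subunits 0 rose and 7 and 9 fell (50% and 64.3%), led by Pfdn1 (-1.24 and -1.71), Pfdn2 (-1.08 and -1.14) and Pfdn6 (-0.93 and -1.25). Of 6 other small heat shock proteins 4 fell in each genotype (66.7%), led by Hspb3 (-3.05 and -3.01), Hspb6 (-2.83 and -2.30) and Hspb8 (-2.46 and -1.95). Of 22 other mitochondrial chaperones, proteases and matrix enzymes 18 and 20 fell (81.8% and 90.9%) and 1 and 1 rose, led by Mdh2 (-2.54 and -2.23), Phb (-2.16 and -2.06) and Cs (-2.34 and -1.66). Of 12 immediate early genes, which also respond to tissue handling, 4 rose in each genotype (33.3%), led by Fosb, Fos and Egr1 (Fos 2.16 and 1.77), and the part of handling in the MI comparisons was not tested.

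The study asked whether loss of myeloid Vegfc changes the injured heart. It addressed this with heart function, histology, flow cytometry and cultured macrophages, and from the RNA it reported dysregulated inflammatory genes. The comparison here covers whole-tissue RNA only and does not bear on that other evidence. After MI, 0 of the 43 genes were called between LysMCre and control hearts, as were 0% of all genes by edgeR's quasi-likelihood test. DESeq2's Wald test called 51 and limma-voom 0 of all genes, and neither called a member. At an unadjusted p under 0.05 there was 1 member, where 7.94% of all genes passed. That gene was Eif2ak3, at 28.3, 35 and 31.6 CPM in MI control and 41, 37.1 and 43.8 CPM in MI LysMCre hearts, with a log2 difference of 0.36 ± 0.13 (edgeR adjusted p = 0.584). All 3 LysMCre libraries were above all 3 control libraries in 6 members (Hspa5, Calr, Canx, Ern1, Eif2ak3 and Sel1l), where 5.99% of all genes were, and below them in Hspa1a, where 6.12% were. The difference was above 0 in 35 and below 0 in 8 of the 43, with a median of 0.16. Over all 14779 genes tested it was above 0 in 7227 and below 0 in 7551, with a median of -0.01. The median over the 15 secretory-pathway genes was 0.14, and 0.05 to 0.24 with each library left out in turn. MI LysMCre replicate 3 was the highest MI library for 13 of these 15 genes. Cardiomyocyte markers lay the same way, with 11 of 12 above 0 and a median of 0.58, while the medians of T cell and red cell markers were -1.75 and -1.37, and the part of cell makeup was not tested. In naive hearts 12 of the 43 were above 0 and 31 below, with a median of -0.10, where 7749 of all 14779 genes were above 0 and 7017 below. The values after MI were 0.40 ± 0.21 for Hspa5, 0.44 ± 0.23 for Calr, 0.69 ± 0.44 for Cryab and 0.68 ± 0.59 for Hspb7, each under 2 standard errors. Without naive LysMCre replicate 3, which is in neither of these groups but shares their estimate of spread, 5 members had an unadjusted p under 0.05 (Calr, Eif2ak3, Hyou1, Pdia4 and Sel1l), where 8.43% of all genes did, and none was called.

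The difference between genotypes in the response to MI was tested as an interaction, and 0 members and 0% of all genes were called by edgeR, with 55 genes by DESeq2's Wald test, which called no member and gave 9 of them no adjusted p, and 0 genes by limma-voom. So members called in 1 genotype alone, such as Calr, Hyou1, Pdia4, Herpud1 or Hsph1, are not shown to differ in their response. The smallest p among the 43 was that of Hspa1b, whose values in every library are given above, with an interaction of 1.40 ± 0.57 on the log2 scale (edgeR adjusted p = 0.565). It was the only member at an unadjusted p under 0.05, where 8.30% of all genes passed. Without naive LysMCre replicate 3 there were 8 (Asns, Atf6, Calr, Canx, Ern1, Hyou1, Pdia4 and Sel1l), where 11.7% of all genes passed, and still none was called, with 1 gene called in all. With all libraries the interaction was above 0 in 37 of the 43 and in 6987 of all 14779 genes, with medians of 0.23 and -0.03. Without that library it was above 0 in 38 of the 43, with a median of 0.29 against -0.03 over all genes. It was then 0.90 for Ern1 and 0.93 for Sel1l (edgeR adjusted p = 0.256 and 0.197). In naive hearts 0 members and 0% of all genes were called between the genotypes by edgeR, with 14 genes by DESeq2's Wald test and 6 by limma-voom, no member among them, and 2 members had an unadjusted p under 0.05, where 3.38% of all genes did. They were Hspa1b at -1.20 ± 0.43 and Dnajb1 at -0.46 ± 0.19, both with an edgeR adjusted p of 1. Hspa1b was at 2.99 and 7.76 CPM in the naive control libraries and 1.79, 3.03 and 2.26 CPM in the naive LysMCre libraries, which overlapped. Without naive LysMCre replicate 3, 17 genes were called between the naive groups and no member, and 3 members had an unadjusted p under 0.05 (Ern1, Hspa1b and Sel1l), where 6.65% of all genes did.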

How the data were processed

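RNA of the left ventricle of 11 mice was sequenced from TruSeq stranded mRNA libraries. The authors deposited raw read counts per gene for each library, and the submitters' processing notes name cutadapt 1.13, STAR, HTSeq 0.6.1p1, DESeq2 1.14.1 and the mouse genome build mm10. The strand setting of the counting is not given in the sources used here. The counts of 25006 genes were used as deposited, with groups taken from the labels. Total counts were 10824989 to 26782728, and a count of 3 was 0.112 to 0.277 CPM.

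Genes were filtered by filterByExpr on groups (14779 kept), scaled by TMM and fitted in 1 model of the 4 groups with edgeR 4.0.16 in R 4.3.3 (glmQLFit and glmQLFTest), with Benjamini-Hochberg adjustment and a threshold of 0.05. MI was compared with naive hearts within each genotype, LysMCre with control within MI and within naive hearts, and the interaction was tested. The standard error is the log2 fold change divided by the square root of the F statistic. Fits were tested on simulated data. DESeq2 1.42.0, limma-voom 3.58.1, other scalings, other filters, stricter thresholds and leaving out each library were alternatives. Gene classes are described by counts and medians only. The 43 genes and the further lists were chosen with earlier results of these data known. Named besides the 43 were, from each further list, the 3 genes with the largest change called with the same sign in both MI comparisons, and Vegfc, Lyz2, Xist and 4 Y-linked genes as label checks. Exon lengths and overlaps came from GENCODE, and promoter windows from RefSeq. No column was left unassigned to a sample.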

Additional observations from a re-analysis of the deposited data

How the results depend on the processing

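Limits were set by 2 naive control libraries, by sex, which by Xist and Y-linked genes coincides with MI, and by whole-tissue RNA. The genotype label of naive LysMCre replicate 3, uncertain by its Lyz2 level, was a further limit. The counts of members called between genotypes or by interaction were 0 under every alternative run. With library totals alone, members called higher became 18 in control and 26 in LysMCre mice, and lower 6 and 4. An adjusted p under 0.01 left 10 members in control mice, 3 of them higher, and 4 lower in LysMCre mice. A log2 fold change of at least 1 left 11 in control mice, 4 of them higher, and 13 in LysMCre mice, 4 of them lower. Library totals alone gave class medians, in control and LysMCre mice, of 0.90 and 1.04 (secretory pathway), 0.69 and 0.81 (ER lumen), 0.57 and 1.11 (lectins), 1.36 and 1.66 (disulfide isomerases), 0.31 and 0.54 (sensors and factors), 0.83 and 1.40 (ER-associated degradation), 0.03 and 0.58 (integrated stress response), -0.06 and 0.32 (cytosolic) and -1.28 and -1.12 (mitochondrial), in step with the shift of all genes. That scaling also turned Canx in control mice to 0.24, Atf6 in LysMCre mice to 0.48, Atf4 to 0.24 in both, Ddit3 in LysMCre mice to 0.00 and Dnaja1 in LysMCre mice to 0.26. By limma-voom with quality weights the medians in LysMCre mice were 0.81 for the secretory pathway and -2.04 for small heat shock proteins, and the cause was not tested. Leaving out each library in turn gave 6 to 20 members called in control mice (2 to 10 higher, 4 to 10 lower) and 14 to 24 in LysMCre mice (10 to 16 higher, 4 to 8 lower). Their medians ran, in LysMCre mice, from 0.37 to 0.85 (secretory pathway), 0.12 to 0.46 (ER lumen), 0.74 to 1.17 (ER-associated degradation), -0.27 to 0.03 (cytosolic) and -2.30 to -1.03 (small heat shock proteins), and in control mice from -0.71 to 0.16 (cytosolic) and -2.87 to -1.75 (small heat shock proteins). No paired analysis was possible because the labels give no shared replicate numbers.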
